A study of Mus musculus with 11 samples.

Results

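The genes that encode the proteins of the cytoplasmic ribosome were described through the open chromatin around them in naive CD4 T cells of the mouse. Members were all peaks of the deposited ATAC-seq table whose assigned gene has a name of the form Rpl or Rps plus a number (with an optional a, x or l) or is Rplp0, Rplp1, Rplp2 or Rpsa. This gave 190 of 45508 peaks, assigned to 73 genes. Of these, 70 peaks, 1 for each of 70 genes, lay within 1 kb of the assigned start site and are called promoter peaks. The other 120 peaks, called distal, were assigned to 41 genes, and Rpl26, Rpl34 and Rpl32l had distal peaks only. Promoter peaks made up 36.8% of the members and 26.8% of all listed peaks. The 1 kb line fell in a gap. The farthest promoter peaks of members were those of Rps14 at 402 bases, Rpl10 at 360 bases and Rps12 at 358 bases from the start, and the nearest distal ones were those of Rpl14 at 1.291 kb and Rps20 at 1.43 kb. The Rps14 peak averaged 80.4 RPM and the nearest Rpl14 distal peak 4.66 RPM over the 11 libraries.

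ATAC-seq reads DNA that the transposase Tn5 can reach, and here each library came from 10000 sorted cells tagmented for 1 h at 37 °C. All 3 mice were untreated, on a C57/BL6 background, and carried both the Tg(Nr4a1-EGFP)GY139Gsat transgene, in which regulatory DNA of Nr4a1 (Nur77) drives green fluorescent protein, and the Foxp3tm1Flv allele, a red reporter of Foxp3. CD4+ CD44lo cells without the Foxp3 reporter were taken from spleen and lymph nodes and sorted by GFP and by Ly6C, a surface protein of naive cells that have had weaker receptor signals. Population D was Nur77-GFP high and Ly6C negative (n = 3), C was intermediate and Ly6C negative (n = 3), B was intermediate and Ly6C positive (n = 3), and A was low and Ly6C positive (n = 2). The number after a population's letter names the mouse, so D1, C1, B1 and A1 came from mouse 1, and mouse 2 has no library of A. Nr4a1 is induced when the T cell receptor is engaged, so the comparisons ask how the chromatin of naive cells differs with their recent receptor signalling. In sorted bulk cells, fewer cells with an open site and less opening per cell cannot be told apart.

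Ribosomal proteins are made in near equal numbers for each ribosome, a large subunit of Rpl proteins and a small subunit of Rps proteins around ribosomal RNA. The stalk proteins Rplp0, Rplp1 and Rplp2 form an arm of the large subunit that recruits translation factors. Most of these genes are single active copies with many silent pseudogenes. Their promoters are often without a TATA box, and their mRNAs begin with a C followed by an unbroken run of pyrimidines, the terminal oligopyrimidine tract, through which mTOR and Larp1 set how much of them is translated. Resting naive T cells make little protein, and receptor stimulation raises ribosome production, in part through Myc.

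Start regions of members are shown because the pyrimidine tract is the best known sequence shared by these genes. RefSeq start regions on GRCm38.p6, the assembly called mm10, were found by symbol for 54 of the 73 genes. Of the starts found, 51 lay within the promoter peak of their gene. Promoter peaks of genes with no start region found were not assessed in this way. Each line below holds 30 bases, 15 before the start, the start base and 14 after it. Capitals mark the longest run of C and T within 10 bases of the start. The first 8 have a long run and a start base of C or T, and the last 5 do not.
Rpl35 (chr2:39005117-39005146, minus strand): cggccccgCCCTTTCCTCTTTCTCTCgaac
Rpl27a (chr7:109519180-109519209, plus strand): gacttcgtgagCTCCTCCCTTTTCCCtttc
Rpl15 (chr14:18270972-18271001, minus strand): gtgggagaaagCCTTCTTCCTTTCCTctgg
Rpl14 (chr9:120571502-120571531, plus strand): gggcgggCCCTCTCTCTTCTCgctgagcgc
Rps10 (chr17:27635230-27635259, minus strand): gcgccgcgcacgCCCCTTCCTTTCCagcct
Rplp2 (chr7:141447636-141447665, plus strand): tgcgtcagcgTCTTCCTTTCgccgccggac
Rps6 (chr4:86857353-86857382, minus strand): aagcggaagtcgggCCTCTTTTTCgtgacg
Rps15a (chr7:118116133-118116162, minus strand): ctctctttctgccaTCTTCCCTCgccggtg
Rplp0 (chr5:115559452-115559481, plus strand): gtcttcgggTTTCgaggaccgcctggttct
Rps19 (chr7:24884577-24884606, plus strand): tccgaaaTCTCgcgagactcgacgcccgac
Rpl11 (chr4:136053379-136053408, minus strand): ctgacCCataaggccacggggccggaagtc
Rpl23 (chr11:97782425-97782454, minus strand): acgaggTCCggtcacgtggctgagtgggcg
Rps4x (chrX:102189377-102189406, minus strand): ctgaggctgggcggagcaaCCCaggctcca

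A C or T start base with a run of at least 8 C or T bases was found at 12 of the 51 RefSeq starts (23.5%), those of Rpl14, Rpl15, Rpl27a, Rpl28, Rpl35, Rpl38, Rplp2, Rps6, Rps9, Rps10, Rps15a and Rps27. The same was found at 4.33% of the 8287 genes whose start lay under a promoter peak of their own, and at 4.51% of all 32851 promoter entries. The start base was C at 16 members, T at 6 and a purine at 29, so many listed starts are not at a pyrimidine. Whether the RefSeq start is the one used in these cells was not tested. The longest run within 10 bases of the start had a median of 5 bases (2 to 18) in members and of 4 bases in genes under promoter peaks. Runs were cut at that distance, and that of Rpl27a, for example, goes on beyond it.

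Short motifs were searched on both strands of the 300 bases from 250 before to 50 after the start. The ETS core CCGGAAG stood in 19 of 51 members (37.3%), against 19.4% of genes under promoter peaks and 8.86% of all entries. The SP1 core GGGCGG stood in 62.7% of members and 68.6% of genes under promoter peaks, CCAAT in 37.3% and 38.7%, the NRF1 core GCGCATGC in 5.88% and 6.06%, and the YY1 core ATGGCGGC in 3.92% and 5.33%. TATAAA stood in 5 members (9.80%) and in 6.06% of genes under promoter peaks. The E-box CACGTG, which Myc and Max can bind, stood in 4 members (7.84%), against 10.9% of genes under promoter peaks. The ETS core read on the other strand begins with C and T bases, so it can lie inside a pyrimidine run, and 7 members had both. None of these letters was found in 5 members. The GC content of members had a median of 58.0% (44.3% to 72.3%), against 61.7% for genes under promoter peaks. A match is a description of these letters, not a site shown to be bound.

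The 250 bases before the start are given for 4 members that the results below return to, with motif matches in capitals. The first base of the ETS match is at position -108 in Rplp2 and at -91 in Rps6, counted back from the start, with -1 the base before it. Rplp2 also has an SP1 match at -23 and Rps19 one at -95, and Rps4x has its first SP1 match at -32 and a CCAAT match at -177. Of the members with a RefSeq start, Rps19 had the highest promoter level in rppm and Rps4x the lowest; per kb of peak, Rpl13a was highest and Rpl13 lowest.
Rplp2 (chr7:141447401-141447650, plus strand): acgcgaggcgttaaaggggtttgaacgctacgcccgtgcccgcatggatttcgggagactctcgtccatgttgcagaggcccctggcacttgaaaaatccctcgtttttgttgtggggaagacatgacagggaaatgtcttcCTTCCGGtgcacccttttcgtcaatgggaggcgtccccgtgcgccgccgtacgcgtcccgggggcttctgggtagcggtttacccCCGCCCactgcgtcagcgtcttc
Rps6 (chr4:86857368-86857617, minus strand): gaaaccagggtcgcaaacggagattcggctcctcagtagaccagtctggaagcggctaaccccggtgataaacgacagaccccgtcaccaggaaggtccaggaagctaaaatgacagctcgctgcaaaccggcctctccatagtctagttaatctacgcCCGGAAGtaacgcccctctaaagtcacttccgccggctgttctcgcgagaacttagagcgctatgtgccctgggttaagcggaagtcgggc
Rps19 (chr7:24884342-24884591, plus strand): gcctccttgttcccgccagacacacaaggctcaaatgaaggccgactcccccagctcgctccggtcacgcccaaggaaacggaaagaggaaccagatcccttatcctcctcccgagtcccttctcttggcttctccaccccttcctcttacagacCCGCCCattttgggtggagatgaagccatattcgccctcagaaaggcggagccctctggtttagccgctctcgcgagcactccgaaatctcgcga
Rps4x (chrX:102189392-102189641, minus strand): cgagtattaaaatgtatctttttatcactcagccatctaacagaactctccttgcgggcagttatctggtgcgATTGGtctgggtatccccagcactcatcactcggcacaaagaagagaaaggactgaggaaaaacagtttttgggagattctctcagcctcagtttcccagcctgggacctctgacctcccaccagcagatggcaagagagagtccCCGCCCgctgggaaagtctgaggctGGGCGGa

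Values are rppm, the RPM of the deposited table, scaled to each library's denominator. That denominator ran from 2597176 reads in D1 to 36859229 in D3, with 9194084 and 9933354 reads in A1 and A3, so a peak at 10 rppm rested on 26 to 369 reads. Marker genes were read from their peaks. All 5 T cell genes listed (Cd3e, Cd3d, Cd3g, Cd4, Lck) had a promoter peak, and of the 5 B cell genes listed 2 had a peak and none a promoter peak. The summed level of the 4 B cell peaks was 29.3 to 42.0 rppm in D, 35.7 to 47.1 in C, 40.3 to 41.7 in B and 37.5 to 43.6 in A. The 10 peaks of 3 of 5 myeloid genes summed to 74.0 to 85.5 rppm in D and 82.4 to 83.9 in A, the 16 peaks of 4 of 5 CD8 T and NK cell genes to 366.9 to 472.1 in D and 431.2 to 455.1 in A, and the 3 peaks of 2 of 4 erythroid genes to 40.4 to 59.2 in D and 67.9 to 70.8 in A. The part of such cells in any result was not tested.

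The promoters of ribosomal protein genes were open in all 11 libraries and more so than most. The mean level of a promoter peak over all libraries had a median of 54.3 rppm in the 70 members and 38.1 rppm in all 12206 promoter peaks, and 63 members were above 38.1 rppm. Per length, so that genes can be compared, the median was 44.8 rppm per kb in members and 31.1 in all promoter peaks, with 65 of 70 members above that value. Members were close in width to other promoter peaks, with medians of 1195.5 and 1212 bases, and all 70 spanned the start site assigned in the deposited table. These are descriptions of a set of genes chosen by name.

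Among the members, the level per kb differed by 3.26-fold. Rpl13a, a large subunit protein also known for a role outside the ribosome in silencing inflammatory mRNAs, was highest at 81.2 rppm per kb, followed by Rpl41, the smallest ribosomal protein, at 76.8, Rps29 at 74.7 and Rps19 at 68.3. Rpl13 was lowest at 24.9 rppm per kb, Rps4x next at 25.8 and Rpl8 at 28.8. Promoters of the 41 large subunit genes had a median of 42.7 rppm per kb and those of the 29 small subunit genes 44.9. The 4 genes on the X chromosome lay at 25.8 (Rps4x), 33.7 (Rpl39), 37.2 (Rpl36a) and 42.9 rppm per kb (Rpl10), a median of 35.4, against 44.9 for the 66 autosomal genes on the other chromosomes that hold members. Across the 70 peaks, level and width went together with a Pearson r of 0.50 and a Spearman rho of 0.52, a description over genes of the same libraries.

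Member promoters varied somewhat less between libraries than promoter peaks as a whole. The coefficient of variation over the 11 libraries had a median of 8.84% in members and 11.3% in all promoter peaks. Members also had the higher level, with medians of 54.3 and 38.1 rppm, and higher peaks rest on more reads. The part of level in this difference was not tested. The coefficient was lowest for Rpsa, a small subunit protein also called the laminin receptor, at 3.45%, and for Rps19 at 3.69%. Only Rpl23 at 20.2% and Rpl13 at 18.9% exceeded 15% among the 70. The lowest value of a member was in D1, the shallowest library, for 25 members, in D3, the deepest, for 21 and in D2 for 5, and in neither A library for any. The part of depth in this was not tested. D has 3 libraries and A 2, and the same counts over all promoter peaks were not taken.

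**Figure D1:**
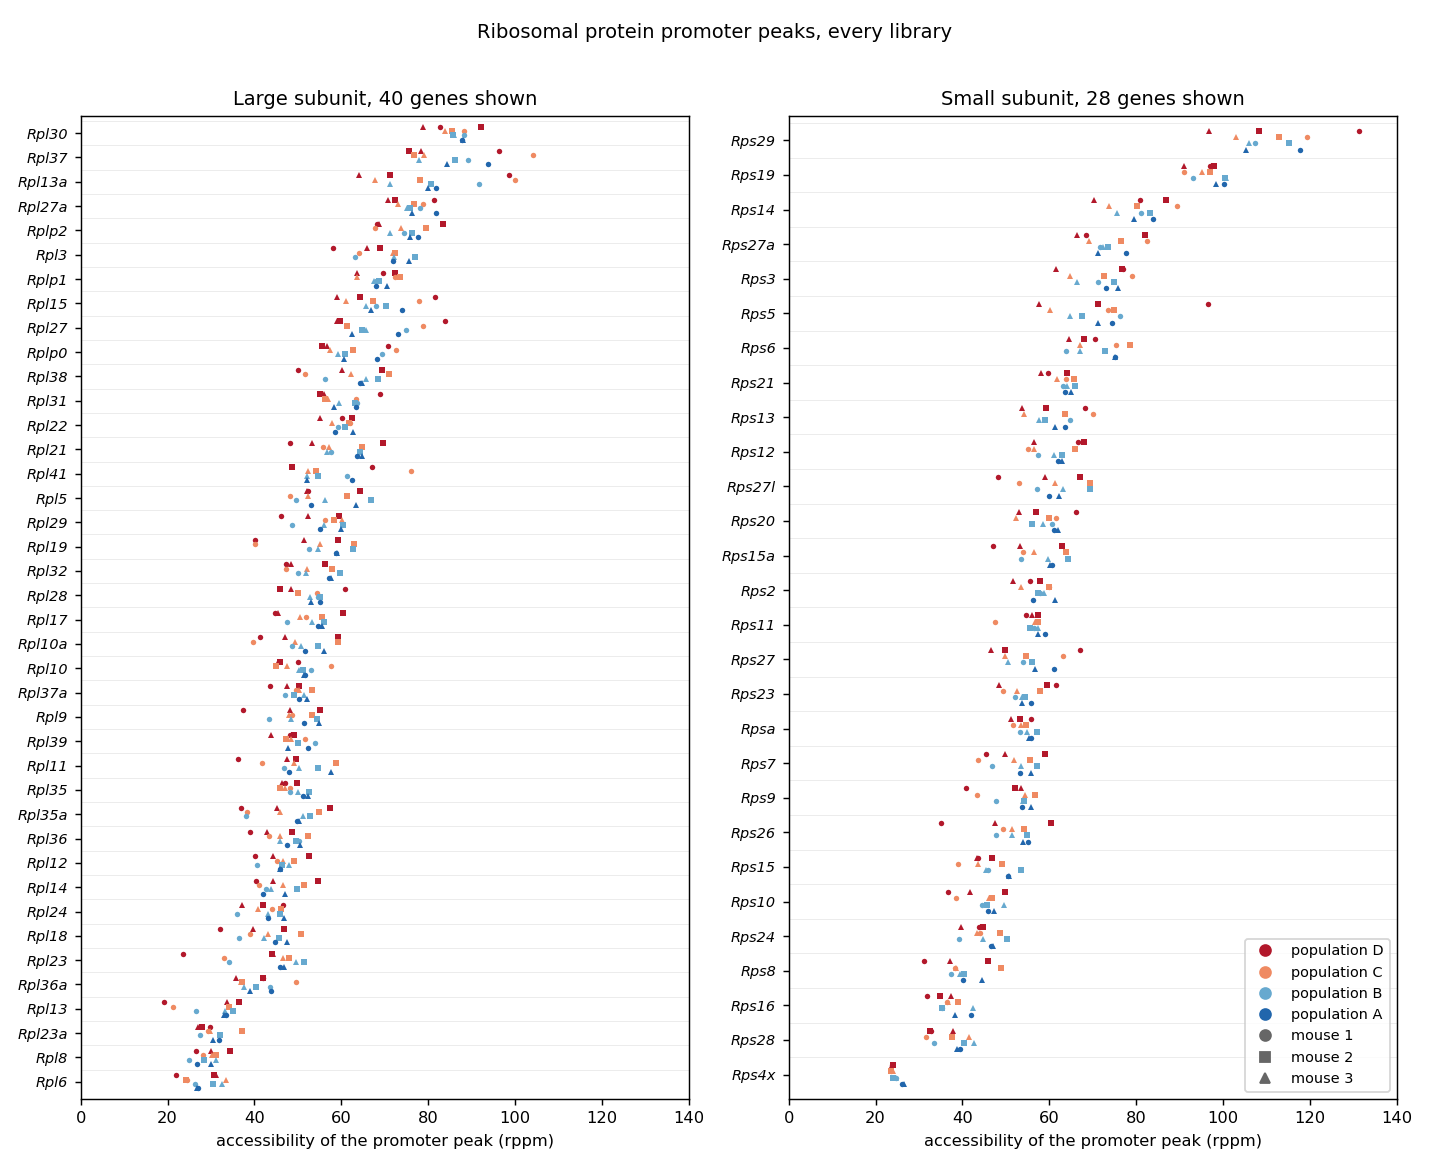
Accessibility of promoter peaks of ribosomal protein genes in rppm, 1 row per gene shown, large subunit genes left and small subunit genes right, ordered by mean level. Each point is 1 library, coloured by population and shaped by mouse; means run from 24.4 rppm at Rps4x to 111 at Rps29, and the populations overlap in most rows.

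Rps29, a zinc-binding small subunit protein, had the highest promoter peak in rppm (chr12:69158498-69159986). It measured 131, 108 and 96.7 rppm in D1, D2 and D3, 119, 113 and 103 in C1, C2 and C3, 107, 115 and 106 in B1, B2 and B3, and 118 and 105 in A1 and A3. The populations overlapped, and the log2 difference of D from A was -0.00 with a standard error of 0.13. Rps19, whose loss in humans causes Diamond-Blackfan anaemia, measured 97.03, 97.9 and 90.9 rppm in D and 100.2 and 98.5 in A at chr7:24883714-24885128. Every D value was just below the A values, by a log2 difference of -0.06 ± 0.09 (SE), with an adjusted p of 0.774 in limma. Rpl30 and Rpl37, both of the large subunit, were also among the highest 5, at means of 86.1 and 85.6 rppm.

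At the low end, the promoter of Rps4x, a small subunit gene on the X chromosome (chrX:102188714-102189662), measured 23.9, 24.0 and 23.8 rppm in D, 23.5, 23.4 and 24.0 in C, 24.6, 23.9 and 24.8 in B and 26.1 and 26.6 in A. The A values were above all others and the remaining populations overlapped. The log2 difference of D from A was -0.14 ± 0.10 (SE), with an adjusted p of 0.482 in limma. Rpl6, Rpl8, Rpl23a and Rpl13 were the other 4 of the lowest 5, at means of 28.1, 29.3, 30.4 and 30.9 rppm. Rpl13 stood at 19.3, 36.5 and 33.7 rppm in D and 33.4 and 33.0 in A, with 21.2 rppm in C1 and 26.5 in B1, so the low values were those of mouse 1 other than A1.

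The promoters of the stalk genes did not separate D from A. Rplp0, the base of the stalk (chr5:115559075-115560212), measured 70.8, 55.6 and 56.8 rppm in D and 68.1 and 60.7 in A, a log2 difference of -0.08 with a 95% interval of -0.37 to 0.21 and an adjusted p of 0.792 in limma. Rplp1 (chr9:61913983-61915331) measured 69.7, 72.4 and 63.7 rppm in D and 68.0 and 70.5 in A, and Rplp2 (chr7:141446983-141448096) measured 68.2, 83.3 and 68.7 in D and 77.7 and 75.7 in A. Their adjusted p-values in limma were 0.959 and 0.791. Rplp2 has a pyrimidine run at its start and Rplp0 does not, as printed above.

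Rpsa measured 55.8, 53.2 and 51.1 rppm in D and 55.8 and 55.4 in A (chr9:120127180-120128331; adjusted p of 0.785 in limma). Rps6, the small subunit protein that S6 kinase phosphorylates after receptor stimulation, measured 70.5, 67.9 and 64.5 rppm in D, 75.4, 78.6 and 67.1 in C, 63.9, 72.9 and 67.2 in B, and 75.2 in both A libraries (chr4:86856580-86858325). All 3 D values lay below A, but so did the B values, and the log2 difference of D from A was -0.15 ± 0.10 (SE) with an adjusted p of 0.443 in limma. Rps27l, a copy of Rps27 that p53 induces, measured 48.1, 67.05 and 59.0 rppm in D and 59.9 and 62.2 in A (chr9:66945258-66946789; adjusted p of 0.804 in limma).

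The first comparison asks how the promoters differ between cells with the strongest and the weakest reporter signal, D and A. No member promoter passed the threshold, an adjusted p below 0.05 in limma over all 45508 peaks, whereas 3.64% of all promoter peaks and 12.4% of all peaks did. Of the 70 members 0 had an unadjusted p below 0.05, and edgeR and DESeq2 on the reads recovered from the values called 0 each, against 4.38% and 3.38% of all promoter peaks. The lowest adjusted p was 0.336. The estimates were small: log2 differences of D from A ran from -0.36 at Rpl23 to 0.08 at Rpl8, with a median of -0.10, a ratio of 0.935. The median kept its sign under every alternative, at -0.14 to -0.03, and was nearest 0 with quantile scaling. It was -0.07 over all promoter peaks and -0.04 over all peaks. The sign was negative at 64 of 70 members (91.4%) and at 69.3% of all promoter peaks. For all 70 members the 95% interval of the difference stayed within 2-fold in either direction, and for 66 within 1.5-fold.

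All D libraries lay below both A libraries at 16 of 70 members (22.9%), against 14.2% of all promoter peaks, and above them at 0 members, against 8.45%. The 16 included Rpl3, Rpl10, Rpl23, Rpl23a, Rpl32, Rpl35, Rpl37a, Rps4x, Rps6, Rps9, Rps15, Rps16, Rps19, Rps24 and Rps28. Their names are listed after their values were seen. At Rps19 the gap was narrow beside the spread within D, and at Rps4x it was wider than that spread.

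**Figure D2:**
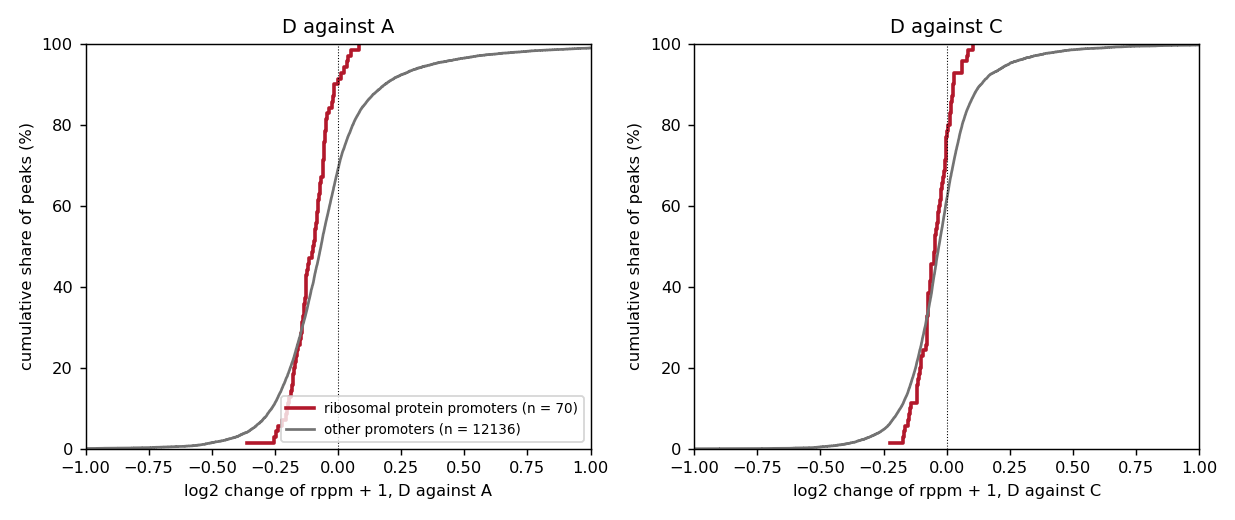
Cumulative share of promoter peaks, in percent, by log2 change of rppm + 1, for D against A (left) and D against C (right), with the 70 members in red and the other 12136 promoter peaks in grey. In D against A the member estimates run from -0.36 to 0.08, and 91.4% are below 0; peaks beyond 1 in either direction are outside the axis.

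The most negative estimates were at Rpl23, Rpl11, Rpl19, Rpl18 and Rps26. Rpl23 and Rpl11 encode large subunit proteins that can bind and inhibit Mdm2, the ligase that degrades p53. The Rpl23 promoter (chr11:97781608-97782993) measured 23.5, 44.1 and 44.2 rppm in D, 33.0, 48.0 and 46.6 in C, 34.2, 51.4 and 49.6 in B and 45.8 and 46.8 in A. Low values occurred in the D, C and B libraries of mouse 1 but not in its A library, and the log2 difference of D from A was -0.36 ± 0.25 (SE) with an adjusted p of 0.454 in limma. The Rpl11 promoter (chr4:136052633-136053852) measured 36.2, 49.4 and 47.4 rppm in D and 48.0 and 57.6 in A, a log2 difference of -0.25 ± 0.16 (SE; adjusted p of 0.3998 in limma). D and A overlapped at Rpl11. At Rpl19, Rpl18 and Rps26 the log2 differences were -0.24, -0.24 and -0.22, with adjusted p-values of 0.488, 0.432 and 0.493 in limma.

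The most positive estimates were at Rpl8, Rpl14, Rps23, Rpl6 and Rps12, at log2 differences of 0.08, 0.05, 0.04, 0.04 and 0.02. The Rpl8 promoter (chr15:76903843-76904860) measured 26.6, 34.5 and 29.95 rppm in D and 26.9 and 30.1 in A. At Rpl14 the values were 40.4, 54.5 and 44.3 in D and 41.9 and 47.1 in A. D and A overlapped at both, and their adjusted p-values in limma were 0.787 and 0.881.

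Libraries of 1 mouse went together, which allows the same comparison within mice. With the mouse as a replicate block, limma called 8 member promoters (11.4%), all lower in D, where 8.04% of all promoter peaks were lower and called. They included Rpl3, Rpl11, Rpl18, Rpl19, Rpl21, Rpl23 and Rpl32, all of the large subunit. The block estimates were largest at Rpl23, -0.48 with an adjusted p of 0.0165, Rpl19, -0.36 with 0.0232, Rpl11, -0.34 with 0.0134, and Rpl18, -0.34 with 0.0129, all in limma. Over the 70 members the median block estimate was -0.13, against -0.09 over all promoter peaks. The call depends on the scaling and on D1, the shallowest library: with each library also scaled to the same sum over promoter peaks 3 members were called (Rpl11, Rpl18 and Rpl23), and without D1 5 were called, of which Rpl11, Rpl18 and Rpl32 were among the 8.

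Within mouse 1, the D value was below the A value at 50 of 70 members, with a mean log2 difference of -0.15 in members and -0.11 in all promoter peaks. Within mouse 3 it was below at 68 of 70, with -0.16 in members and -0.04 in all promoter peaks. Each of these sets 1 library against 1 library, and the share of all promoter peaks lower in a single mouse was not taken. D3 and A3 also differed in depth, at 36859229 and 9933354 reads. Promoter peaks held 53.9% of the listed signal in D3 and 56.7% in A3. The part of these differences in the counts was not tested. In both mice D was below A at 48 of 70 members (68.6%), against 46.6% of all promoter peaks.

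Summed over the 70 promoters, accessibility was 3831, 4076 and 3648 rppm in D1, D2 and D3 (mean 3852 ± 214, SD, n = 3), 3966 ± 160 in C (SD, n = 3), 3981 ± 143 in B (SD, n = 3) and 4114 and 4090 in A1 and A3 (mean 4102 ± 17.1, SD, n = 2). The D sums lay below both A sums. As a share of all promoter signal of the library, the members held 0.755% ± 0.0242 in D, 0.766% ± 0.0136 in C, 0.767% ± 0.0281 in B and 0.774% ± 0.0185 in A (SD), and these ranges overlapped. Large subunit promoters held 1.32 ± 0.033 times the signal of small subunit promoters in D and 1.34 ± 0.0104 times in A, and the lowest ratio was 1.29 in D1.

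**Figure D3:**
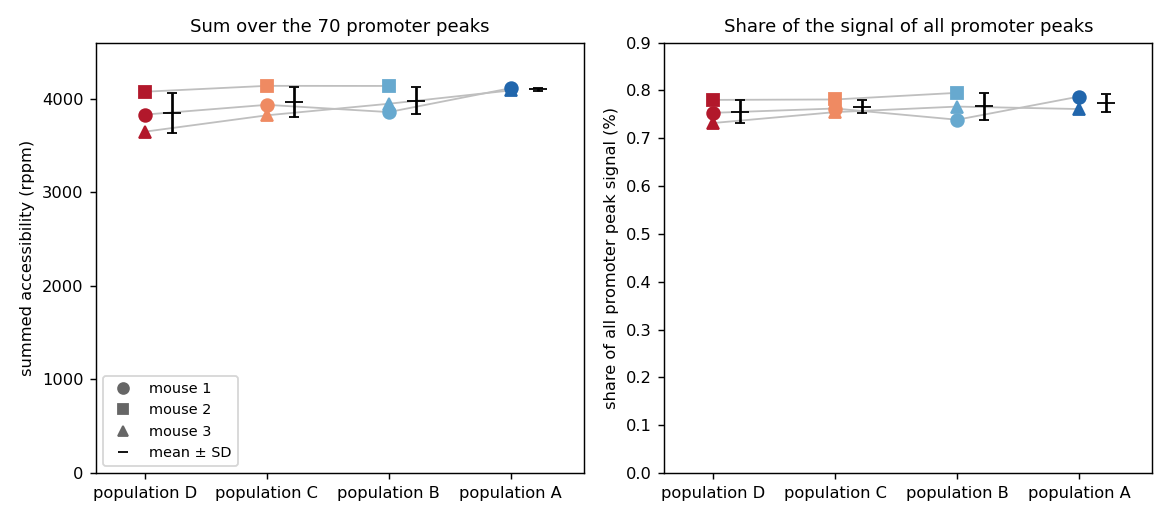
Sum of the 70 promoter peaks in rppm (left) and their share of the signal of all promoter peaks in percent (right), 1 point per library, shaped by mouse, with lines joining libraries of 1 mouse and bars for the mean and SD of each population. The D sums of 3831, 4076 and 3648 rppm lie below the A sums of 4114 and 4090, and the shares overlap.

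The steps between neighbouring populations gave no called member promoter. For D against C, which share the Ly6C gate and differ in GFP, limma called 0 of 70, against 1.09% of all promoter peaks, with 0 at an unadjusted p below 0.05 and 0 in edgeR, DESeq2 and the fit with the mouse block (against 1.65%, 1.06% and 2.88% of all promoter peaks). The median log2 difference was -0.05 in members and -0.03 in all promoter peaks. The difference was negative at 55 of 70 members (78.6%) and at 61.8% of all promoter peaks. For C against B, which share the GFP gate and differ in Ly6C, limma called 0 of 70, against 0% of promoter peaks and 0.00220% of all peaks, with 0 unadjusted and 0 in edgeR and DESeq2 (against 0.0410% in both), and the median was -0.01. For B against A, limma called 0 of 70, against 0% of promoter peaks, with 0 unadjusted and 0 in edgeR and DESeq2 (against 0% and 0.00819%). The median was -0.04 in members and -0.02 in all promoter peaks, and it was negative at 61 of 70 members (87.1%) and 60.8% of all promoter peaks. These comparisons share libraries, so their signs are not independent. The difference between the D against C step and the B against A step was called at 0 of 70 in limma (0 at an unadjusted p below 0.05; edgeR and DESeq2 were not run on it), against 0.0901% of promoter peaks.

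For some genes of the family the peak over an end of the gene carries a neighbour's name. Of the 81 protein-coding RefSeq genes with a name of this form, 11 had no promoter peak of their own name, and for 8 of them a promoter peak named for a neighbour overlapped an annotated end of the gene. The Rps25 end lay under the peak named for Trappc4 (83.7 rppm), Rpl7 under Rdh10 (100.6 rppm), Rpl34 under the pseudogene Rpl34-ps1 (74.4 rppm), Rps18 under Vps52 (61.4 rppm) and Rpl7a under Med22 (55.5 rppm). Rpl4 lay under Zwilch (54.5 rppm), Rpl26 under Gm15772 (42.7 rppm), and the muscle paralogue Rpl3l under Msrb1 (33.6 rppm). The Msrb1 peak covers only the high-coordinate end of Rpl3l. Whether the end under a peak is the start of the gene was not checked, so an overlap need not mark its promoter. For D against A, limma called 0 of these 8, against 3.64% of all promoter peaks. At an unadjusted p below 0.05 there were 0. EdgeR and DESeq2 called 0 each, against 4.38% and 3.38% of all promoter peaks. The log2 differences ran from -0.26 at Rpl4 to -0.02 at Rps25. Limma with the mouse as a replicate block called the Rpl4 peak (adjusted p of 0.0182) and the Rpl7a peak (adjusted p of 0.0247), both lower in D. With that block 8.04% of all promoter peaks were lower and called. Whether the Rpl4 and Rpl7a calls hold with other scaling or without D1 was not examined. The peaks are counted with neither set of members above.

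Distal peaks are assigned to a gene because its start is nearest, which does not show that they act on it. The 120 distal members lay 1.291 to 288.665 kb from the start, with a median of 17.5 kb, and 87 were annotated as intergenic and 21 as intronic. Their level had a median of 9.16 rppm, against 7.44 for all distal peaks. The highest was an intronic peak 26.4 kb from the Rpl5 start (chr5:107926426-107927335, 42.4 rppm), in an intron of another transcript. Next came 3 peaks of the Rplp1 and Rpl34 stretches, at 41.7, 41.2 and 38.6 rppm, none of which was called in D against A.

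Distal members differed between D and A about as often as other distal peaks. Limma called 16 of 120 (13.3%), 13 higher and 3 lower in D, against 15.7% of all distal peaks (10.9% higher and 4.78% lower). At an unadjusted p below 0.05 there were 28, edgeR called 18 and DESeq2 16, against 17.7% and 14.4% of all distal peaks, and with the mouse as a replicate block limma called 25, against 24.5% of all distal peaks. The median log2 difference was -0.04 in members and -0.02 in all distal peaks. At 29 members (24.2%) all D libraries were above both A libraries, against 23.2% of distal peaks, and at 18 (15%) all were below, against 19.4%. The 16 called peaks belonged to 7 of the 41 genes (Rpl11, Rpl15, Rpl21, Rpl34, Rplp1, Rps15a and Rps24), and 10 of them lay over 50 kb from the start. All 16 had D and A libraries that did not overlap. The same sign in mice 1 and 3 follows from that and adds no further support. In 11 of the 13 higher peaks the means followed the order D, C, B, A from high to low. These peaks were picked as higher in D than in A, which already sets D above A in that order. The share with this order among all distal peaks called higher was not taken.

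**Figure D4:**
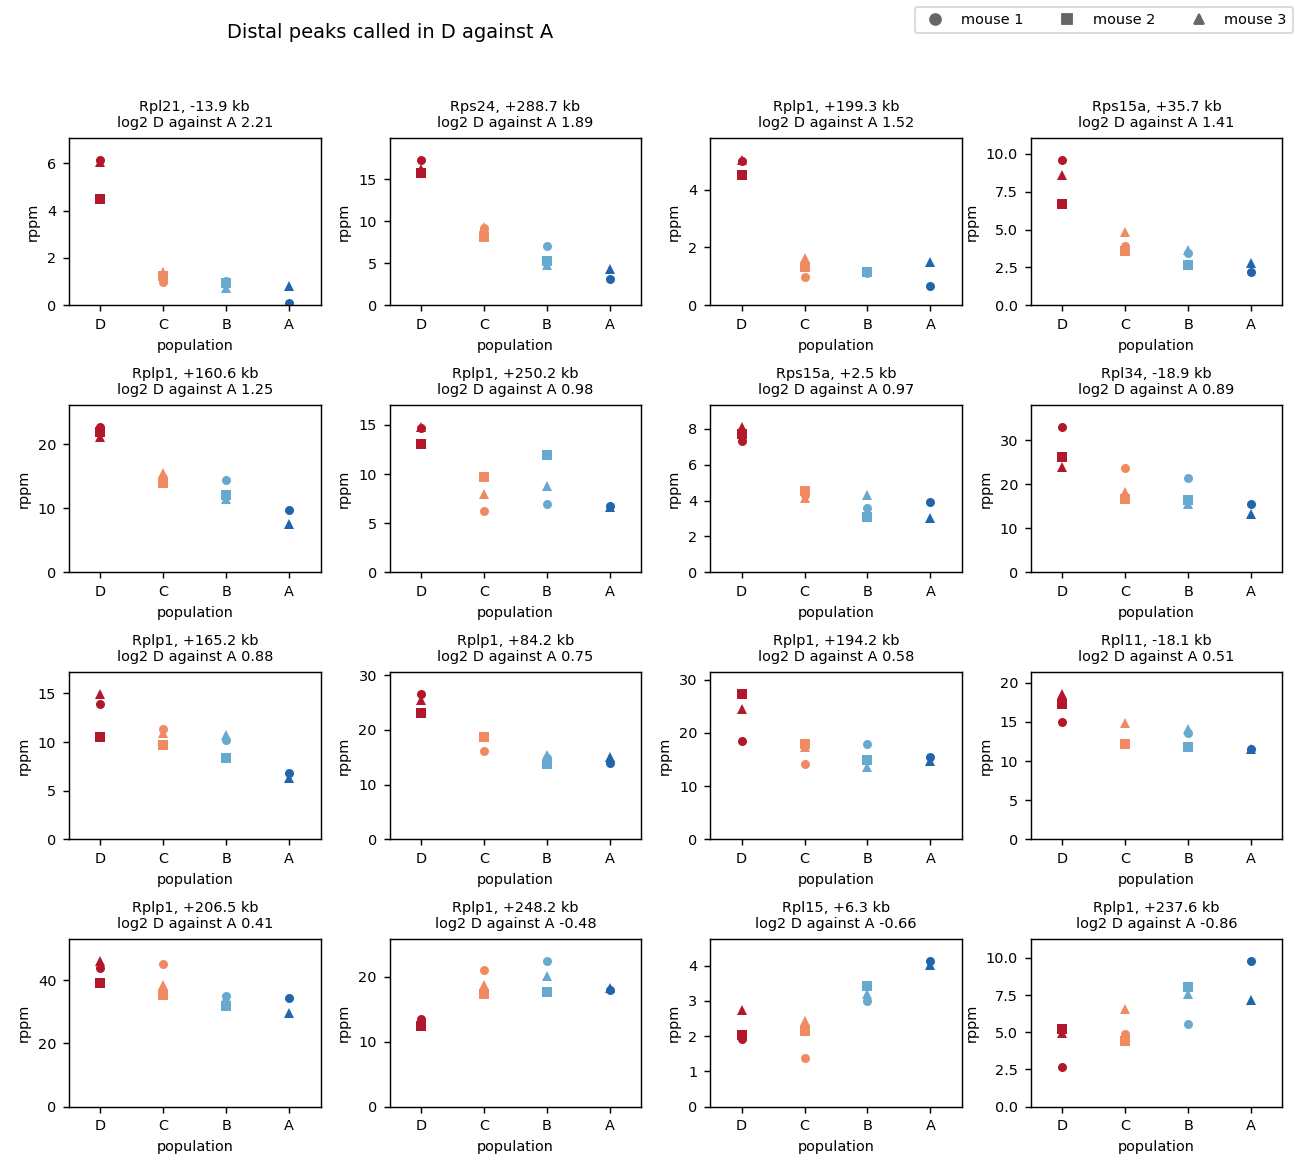
Levels in rppm of the 16 distal peaks called in D against A, 1 panel each with its own axis from 0, and 1 point per library shaped by mouse, with populations in the order D, C, B, A. Panel titles give the distance to the start (negative upstream); at the Rps24 peak the D libraries lie at 15.7 to 17.3 rppm and the A libraries at 3.15 and 4.33.

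The peak with the smallest p lay 289 kb downstream of the start of Rps24, a small subunit gene mutated in some human Diamond-Blackfan anaemia (chr14:24778877-24779960), with Zmiz1 the next gene at 678 kb on the far side. It measured 17.3, 15.7 and 16.2 rppm in D, 9.22, 8.12 and 9.34 in C, 7.02, 5.26 and 4.79 in B and 3.15 and 4.33 in A. None of the 4 populations overlapped another. The log2 rise was 1.89 ± 0.17 (SE) for D against A (adjusted p of 8.57e-06 in limma), 0.82 for D against C (adjusted p of 0.0059) and 1.07 for C against A (adjusted p of 0.0157). The Rps24 promoter was among the 16 that lay below A in every D library, though it was not called.

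The largest rise was at an intergenic peak 13.9 kb upstream of Rpl21, a large subunit gene (chr5:146818685-146819311), with Usp12 on its other side. It measured 6.16, 4.51 and 6.05 rppm in D, 0.981, 1.23 and 1.42 in C, 1.00, 0.916 and 0.718 in B and 0.109 and 0.805 in A, where 0.109 is a single read. D stood apart from all other populations, with a log2 rise of 2.21 ± 0.22 (SE) against A (adjusted p of 1.29e-05 in limma) and 1.57 ± 0.19 (SE) against C (adjusted p of 2.35e-04).

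Rps15a, a small subunit gene with a pyrimidine run at its start, had 2 called peaks. The one 35.7 kb downstream of its start (chr7:118079924-118081051) measured 9.63, 6.69 and 8.63 rppm in D, 3.92, 3.599 and 4.82 in C, 3.45, 2.63 and 3.67 in B and 2.17 and 2.82 in A, a log2 rise of 1.41 ± 0.20 (SE) against A (adjusted p of 2.46e-04 in limma). The one in intron 3 (chr7:118113442-118113901) measured 7.32, 7.71 and 8.11 rppm in D and 3.92 and 3.02 in A, a log2 rise of 0.97 ± 0.17 (SE; adjusted p of 0.00145 in limma). At both peaks the D libraries lay above all others. Both also rose against C, by 0.86 (adjusted p of 0.0093) and 0.71 (adjusted p of 0.0119) on the log2 scale in limma, though the call of the intron 3 peak against C was lost without C3 (adjusted p of 0.0513).

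Rpl11 had a peak 18.1 kb upstream (chr4:136071131-136071805) at 15.02, 17.3 and 18.6 rppm in D and 11.5 and 11.6 in A, a log2 rise of 0.51 ± 0.14 (SE; adjusted p of 0.0304 in limma). This peak lies 72.0 kb from Id3, an inhibitor of E proteins in T cells and the next gene on that side. Rpl15, a large subunit gene with a long pyrimidine run, had a peak 6.28 kb downstream (chr14:18264506-18264906) at 1.93, 2.04 and 2.74 rppm in D and 4.13 and 4.03 in A, where D fell by 0.66 ± 0.19 (SE) on the log2 scale (adjusted p of 0.0368 in limma). The Rpl11 call was lost on leaving out any of A1, A3, D2 or D3 (adjusted p up to 0.168), and the Rpl15 call on leaving out any of A1, A3, B2, B3, D1 or D2 (adjusted p up to 0.199). With libraries thinned to equal reads, the Rpl15 estimate was 0.065.

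Rplp1 had by far the most distal peaks among the members. Its 28 peaks spread over 264 kb, all but 1 of them downstream, toward Tle3, a Groucho-family corepressor, and lay 7.328 to 252.142 kb from the Rplp1 start. In D against A limma called 9 of 28 (32.1%), of which 7 were higher and 2 lower, against 15.7% of all distal peaks (10.9% higher and 4.78% lower); 12 had an unadjusted p below 0.05, and the median log2 difference over all 28 was 0.03, with 14 positive. The Rplp1 promoter itself had a log2 difference of -0.01 (limma, adjusted p of 0.959). The nearest end of Tle3 was 246 to 411 kb from the called peaks.

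The most changed of them by p (chr9:61753437-61754319, 161 kb from the Rplp1 start) measured 22.7, 21.96 and 21.1 rppm in D, 14.7, 13.985 and 15.5 in C, 14.5, 12.1 and 11.5 in B and 9.79 and 7.55 in A. D was above all other libraries and A below all others, with a log2 rise of 1.25 ± 0.14 (SE) for D against A (adjusted p of 4.54e-05 in limma). A peak 199 kb away (chr9:61714921-61715433) measured 5.00, 4.51 and 5.05 rppm in D, 0.981, 1.34 and 1.65 in C, 1.11, 1.145 and 1.20 in B and 0.653 and 1.51 in A, a log2 rise of 1.52 against A (adjusted p of 1.38e-04 in limma). Here D stood apart and the other populations overlapped. At 84.2 kb (chr9:61829806-61830750) the values were 26.6, 23.1 and 25.5 rppm in D and 14.03 and 15 in A, a log2 rise of 0.75 (adjusted p of 9.88e-04 in limma).

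Of the other 6 called peaks of the Rplp1 stretch 4 rose and 2 fell. Peaks at 250.2, 165 and 194 kb rose by 0.98, 0.88 and 0.58 on the log2 scale (adjusted p of 0.00536, 0.00302 and 0.0394 in limma), and 1 at 206 kb rose by 0.41 (adjusted p of 0.0468). Peaks at 248 and 238 kb fell by 0.48 and 0.86 (adjusted p of 0.0297 and 0.0353 in limma). The peak at 248 kb (chr9:61666107-61666591) measured 13.5, 12.4 and 12.4 rppm in D, 21.0, 17.4 and 18.7 in C and 17.9 and 18.2 in A. The next member peak, at 250.2 kb (chr9:61664038-61664507), moved the other way, at 14.6, 13.1 and 14.8 rppm in D, 6.28, 9.67 and 7.92 in C and 6.74 and 6.64 in A.

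The 16 distal peaks of Rpl34, a large subunit gene, lay 18.9 to 175 kb upstream, between Rpl34 and Lef1, a factor of naive T cells whose nearest end was 205 to 361 kb from them. Limma called 1 of 16 (6.25%) in D against A, against 15.7% of all distal peaks, 4 had an unadjusted p below 0.05, and the median log2 difference was 0.29, with 11 positive. The called peak, 18.9 kb upstream (chr3:130748891-130749779), measured 33.1, 26.2 and 23.9 rppm in D, 23.7, 16.8 and 18.2 in C, 21.4, 16.4 and 15.6 in B and 15.4 and 13.3 in A. The D libraries lay above all others, narrowly so over C1, with a log2 rise of 0.89 ± 0.18 over A (SE; adjusted p of 0.00446 in limma), and the call was lost without A3 (adjusted p of 0.0751). The remaining 76 distal peaks, of 39 genes, held 6 of the 16 calls.

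**Figure D5:**
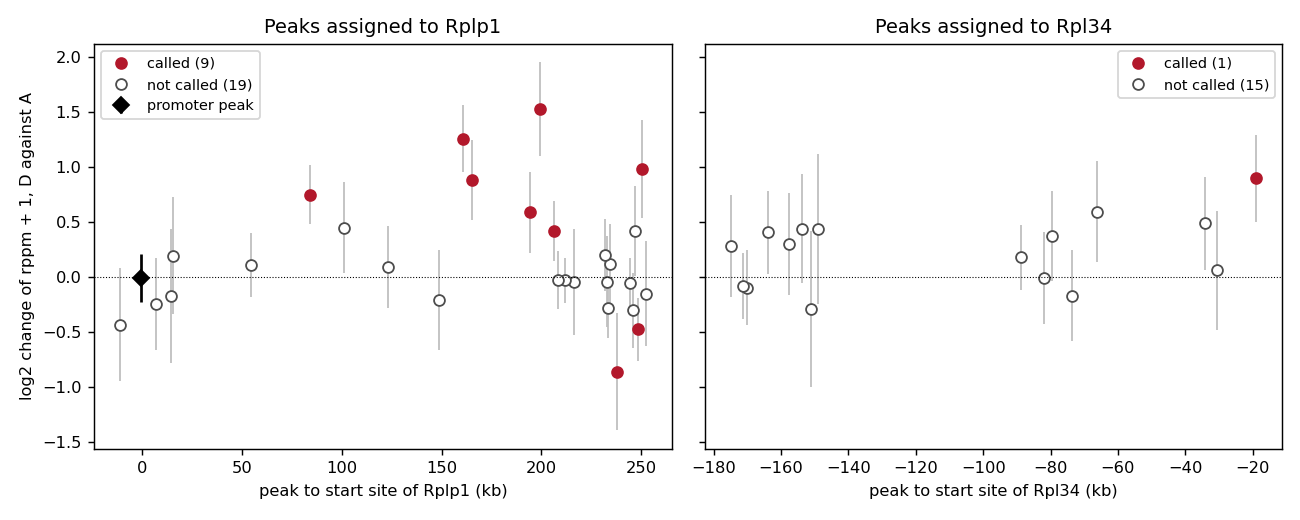
Log2 change of rppm + 1, D against A, with its 95% interval, for the 28 distal peaks of Rplp1 and its promoter peak (left) and the 16 distal peaks of Rpl34 (right), by distance from the start in kb. Called peaks are filled; 9 of 28 are called in the Rplp1 stretch and 1 of 16 in the Rpl34 stretch.

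Single libraries bore on these calls in different ways. Other settings ended some calls that no single library did. Thinning to equal reads ended those of the Rps15a intron 3 peak and the Rplp1 peaks at 84.2 and 199 kb. Leaving out mouse 3, so that A holds 1 library, ended those at intron 3, 84.2 kb and 165 kb. Calls that held in every setting that included the peak numbered 4. They were those of Rpl21, Rps24, the Rps15a peak at 35.7 kb and the Rplp1 peak at 161 kb. Of the 16, 8 kept an adjusted p below 0.05 in limma whichever library was left out of D against A: the Rpl21 peak, both Rps15a peaks, the Rps24 peak and the Rplp1 peaks at 84.2, 161, 165 and 199 kb. The Rpl34 peak and the Rplp1 peak at 250.2 kb were lost only without A3 (adjusted p of 0.0751 and 0.0563). The other 6 were lost without more than 1 library. They are the Rpl11 and Rpl15 peaks above and 4 Rplp1 peaks, at 248 kb (A1, A3, D2 or D3, adjusted p up to 0.179), 238 kb (A1, A3, B3 or D1, up to 0.323), 206 kb (A1, A3, B1, B2, B3, C3, D1 or D3, up to 0.395) and 194 kb (A1, A3, B2, C3, D2 or D3, up to 0.235). Without A3 in all, 8 distal members were called, and without A1 10.

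In D against C, limma called 10 distal members, 8 higher and 2 lower in D, against 7.80% of all distal peaks (5.83% higher and 1.97% lower). At an unadjusted p below 0.05 there were 25. EdgeR called 12, DESeq2 10 and limma with the mouse as a replicate block 17, against 9.62%, 7.16% and 14.5% of all distal peaks. Of the 10, 9 were also called in D against A, which is 90.0% of the calls against C and 56.2% of those against A, and the comparisons share the D libraries. The Rplp1 peak at 199 kb rose by 1.34 (adjusted p of 3.84e-04 in limma) and those at 250.2, 161 and 84.2 kb by 0.78, 0.54 and 0.47 on the log2 scale (adjusted p of 0.0222, 0.0219 and 0.0223), calls that ended without C1, C3 or D3 (adjusted p up to 0.0921), without C1, C2, D2 or D3 (up to 0.0866) and without C1 or D3 (up to 0.0852). The Rplp1 peak at 248 kb fell by 0.54 (adjusted p of 0.0145 in limma), a call that ended without C1 or D3 (up to 0.0602). Of the 10 calls, 4 held whichever library was left out, those of Rpl21, Rps24, the Rps15a peak at 35.7 kb and the Rplp1 peak at 199 kb. Of these, the Rps24 and Rps15a calls ended with libraries thinned to equal reads and without mouse 2 or mouse 3. The other 2 held in every setting that included the peak. All 10 had D and C libraries that did not overlap. The same sign in each of the 3 mice follows from that and adds no further support.

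The peak called against C alone lay 6.72 kb upstream of Rpl11 (chr4:136059602-136060586), at 15.4, 15.3 and 17.0 rppm in D, 21.98, 20.2 and 21.1 in C, 19.4, 21.3 and 21.8 in B and 17.3 and 17.5 in A. D was below all others, and the highest values were in C and B. D fell against C by 0.39 ± 0.10 (SE) on the log2 scale (adjusted p of 0.0412 in limma), a call lost on leaving out any library except B1 (adjusted p up to 0.121). Without C1 6 distal members were called against C and without D3 5.

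The remaining steps held few distal changes. For C against A limma called 2 distal members, against 1.06% of distal peaks: the Rps24 peak and the Rplp1 peak at 161 kb, where the log2 rise was 0.71 (adjusted p of 0.0379). For C against B limma called 0 of 120, against 0.00300% of distal peaks, with 3 at an unadjusted p below 0.05 and 0 in edgeR and DESeq2 (against 0.186% and 0.243%). For B against A it called 0 of 120, against 0% of distal peaks, with 4 unadjusted and 0 in edgeR and DESeq2 (against 0% and 0.0210%). The difference between the D against C and the B against A steps was called at 0 of 120 in limma, against 0.829% of distal peaks, with 14 unadjusted; edgeR and DESeq2 were not run on it. Its lowest adjusted p was 0.0514, at the Rplp1 peak 199 kb away.

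For other genes of the ribosome and of translation, counts in D against A are to be read against the 3.64% of all promoter peaks and 12.4% of all peaks that limma called. Of 7 ribosomal protein genes whose names fall outside the pattern, such as Rack1 and Fau, 4 had a peak, and limma called 0 of their 4 promoter peaks (0 unadjusted, 0 in edgeR, 0 in DESeq2). A peak 1.394 kb from the start of 1 of these, Rps3a1 (chr3:86143945-86144180), measured 1.93, 1.89 and 2.58 rppm in D, 5.89, 4.01 and 5.65 in C and 6.31 and 5.74 in A. D lay below all other libraries and fell by 1.17 ± 0.18 (SE) against A on the log2 scale (adjusted p of 6.25e-04 in limma). Mitochondrial ribosomal protein genes had 63 promoter peaks, of which 0 were called (2 unadjusted, 0 in edgeR, 0 in DESeq2), with a median log2 difference of -0.14. With the mouse as a replicate block, limma called 11 of these 63 lower in D and 1 higher. It also called 1 of the 4 promoter peaks outside the pattern, lower in D. In that fit 8.04% of all promoter peaks were lower and called. Over all 119 peaks of the mitochondrial list 3 were higher and 3 lower without the block, led by an intronic peak of Mrps6, up by 1.12.

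Translation factor genes had 39 promoter peaks with 0 called (0 unadjusted, 0 in edgeR, 0 in DESeq2) and a median of -0.08, and 1 of their 85 peaks was higher, at Pabpc1, the poly(A)-binding protein, by 0.80. Ribosome biogenesis genes had 35 promoter peaks with 0 called (1 unadjusted, 0 in edgeR, 0 in DESeq2) and a median of -0.10, and over 62 peaks 2 were higher and 3 lower, led by a peak 22.8 kb from Wdr12, which fell by 1.21. Host genes of small nucleolar RNAs had 7 promoter peaks with 0 called (0 unadjusted, 0 in edgeR, 0 in DESeq2) and 1 higher among 12 peaks, at Snhg4, by 0.74. With the mouse as a replicate block, limma called 5 of 39, 4 of 35 and 0 of 7 promoter peaks, in that order of lists. All of these were lower in D, where 8.04% of all promoter peaks were lower and called. All log2 values here are from limma without the block.

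Genes that set ribosomal protein output, among them Myc, Max, Larp1, Rptor and Rheb, had 20 promoter peaks, of which 1 was called in D against A (5.00%, against 3.64% of all promoter peaks). It was that of Myc (chr15:61984769-61985822), named here after its values were seen, at 37.0, 38.4 and 38.8 rppm in D, 49.6, 56.4 and 51.4 in C, 53.1, 54.0 and 51.2 in B and 56.3 and 55.3 in A. D lay below all other libraries and fell by 0.54 ± 0.10 (SE) against A on the log2 scale (adjusted p of 0.00169 in limma) and by 0.45 against C (adjusted p of 0.00581). A peak 3.705 kb from the Myc start (chr15:61981469-61981804) went the other way, at 8.47, 8.58 and 7.73 rppm in D and 3.15 and 2.01 in A, a log2 rise of 1.39 (adjusted p of 0.00156 in limma). Over all 74 peaks of this list 6 were higher and 3 lower (12.2%, against 12.4% of all peaks), led by a peak 50.6 kb from Larp1, the protein that binds terminal oligopyrimidine mRNAs, which fell by 1.14. With the mouse as a replicate block, limma called 6 of the 20 promoter peaks lower in D and 1 higher. In that fit 8.04% of all promoter peaks were lower and called.

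Peaks of the genes used in the sort were read as a check of the labels. Limma called 6 of 20 in D against A, against 12.4% of all peaks. A peak 14.9 kb from Ly6c1 (chr15:75033381-75034218) measured 5.00, 5.96 and 5.40 rppm in D, 10.8, 12.1 and 10.1 in C, 16.4, 16.8 and 15.1 in B and 21.0 and 19.6 in A, and fell by 1.72 ± 0.14 (SE) in D against A on the log2 scale (adjusted p of 2.79e-06 in limma). The populations did not overlap there, and D was also lower than C, which has the same Ly6C gate, by a log2 difference of -0.89 (adjusted p of 5.11e-04 in limma). Of the 20 peaks of Nr4a1, Ly6c1 and Ly6c2, 3 were higher in D, all at Nr4a1, and 3 lower, all at Ly6c1. The reporter transgene carries regulatory DNA of Nr4a1, and reads from it were not told apart from those of the gene itself.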

How the data were processed

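ATAC-seq was done on 11 libraries of sorted mouse CD4 T cells. The deposited table holds 45508 peaks with RPM values (headed rppm), as deposited by the authors; Bowtie, MACS2 and mm10 are named in the submitters' processing notes, with no versions, and which reads form the denominator is not given in the sources used here. Every value was a whole number of reads (100% of values, within 0.0006 rppm), which gave each denominator. Reads carry no molecular identifiers.

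The members and lists were chosen with earlier results of these data known. Log2(rppm + 1) was fitted with limma 3.58.1 (R 4.3.3, trended moderation) over all 11 libraries with a mean per population; tests were two-sided, with Benjamini-Hochberg adjustment over all 45508 peaks and a threshold of 0.05. No filter on low values was applied. Fold changes on this scale understate changes of low peaks. Libraries of a population differed beyond sampling noise. The replicate number names the mouse, so the block uses mice: deviations of same-mouse libraries correlated with r of 0.18 to 0.56, and those of different mice with -0.43 to 0.20. Recovered reads were tested with edgeR 4.0.16 (quasi-likelihood) and DESeq2 1.42.0. Described peaks were taken from every member called, the 5 highest and 5 lowest promoters, the 5 most positive and 5 most negative D against A promoter estimates, the 5 highest distal peaks, the stalk genes, Rpsa, Rps6, and Rps27l, the only one of the paralogues Rpl3l, Rpl10l, Rpl39l and Rps27l with a peak of its own name. Some single members are not reported here. The peak named for each related list is the called one with the smallest p.

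Alternatives were pseudocounts of 0.25 and 5, a mean of at least 5 rppm, median-of-ratios, quantile and equal promoter sum scaling, the mouse block, only the populations compared, robust moderation, edgeR, DESeq2, thinning to the shallowest library, a 300-base promoter window, and leaving out each library or mouse. Block with equal promoter sum and block without D1 were chosen after seeing the data. Scripts were tested on simulated data. Motifs and figures used Python 3.11.15, pandas 2.3.3, numpy 2.4.6 and matplotlib 3.10.9.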

Additional observations from a re-analysis of the deposited data

How the results depend on the processing

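The median log2 difference of the member promoters from D against A stayed negative throughout, from -0.14 to -0.03, the smallest with quantile scaling (-0.035). Member promoters called in D against A numbered 0 except with the mouse as a replicate block (8), that block with equal promoter sum (3) and that block without D1 (5). For D against C, C against B and B against A the count was 0 under all alternatives, as was the distal count for the last 2. Distal calls in D against A were 7 with libraries thinned to equal reads, 8 at a mean of at least 5 rppm, 10 with only the 2 populations compared, 25 with the replicate block, 26 with it and without D1, 10 without mouse 2, 5 without mouse 3 and 8 to 18 on leaving out 1 library. In D against C they were 2 thinned, 5 at a mean of at least 5 rppm, 17 with the replicate block, 16 with it and equal promoter sum, 19 with it and without D1, 3 without mouse 2, 2 without mouse 3 and 5 to 11 on leaving out 1 library. Fewer peaks, reads or libraries enter the thinned, filtered and left-out fits; the cause of the other moves was not tested. Signs turned at these peaks, mostly with estimates near 0. With thinning the D against A value was 0.065 at the Rpl15 distal peak, 0.019 at Rpl30, 0.044 at Rps4x, -0.10 at Rpl6, 0.089 at the 41.7 rppm Rplp1 peak, 0.0053 at Rpsa and 0.034 at Rps27l. With DESeq2 the D against A value was 0.0063 at Rps29. With edgeR the D against A value was 0.0057 at Rps29. With equal promoter sum the D against A value was 0.054 at Rps29, 0.023 at the 41.7 rppm Rplp1 peak and 0.040 at the Rplp1 promoter. With median-of-ratios scaling the D against A value was 0.012 at Rps29. With quantile scaling the D against A value was 0.0061 at Rps29, 0.042 at the 41.7 rppm Rplp1 peak, 0.016 at the 41.2 rppm Rplp1 peak, 0.046 at the Rplp1 promoter, 0.013 at Rpsa and 0.0021 at Rps27l. With the block and equal promoter sum the D against A value was 0.057 at Rps29, 0.011 at Rpl37, 0.015 at the 41.7 rppm Rplp1 peak, 0.047 at the 41.2 rppm Rplp1 peak, 0.019 at Rplp0 and 0.025 at the Rplp1 promoter. Without mouse 2 the D against A value was 0.017 at Rps29, -0.036 at Rpl6, -0.011 at Rpl8, -0.068 at Rpl14, -0.0015 at Rps23, -0.026 at Rps12 and 0.0033 at the 41.2 rppm Rplp1 peak. Without mouse 3 the D against A value was 0.019 at Rps29, -0.053 at Rpl6 and 0.063 at the Rplp1 promoter. Without mouse 1 the D against A value was 0.085 at Rpl13, -0.021 at Rps12, 0.020 at the 41.7 rppm Rplp1 peak and 0.016 at Rps27l. With the replicate block the D against A value was -0.035 at Rpl14 and -0.029 at Rps12. With the block and without D1 the D against A value was -0.0078 at Rpl14, -0.11 at Rps23 and -0.12 at Rps12. On leaving out 1 library the values ran from -0.12 to 0.10 at Rps29, -0.048 to 0.20 at Rpl6, -0.011 to 0.17 at Rpl8, -0.37 to 0.077 at Rpl13, -0.068 to 0.14 at Rpl14, -0.026 to 0.14 at Rps23, -0.026 to 0.11 at Rps12, -0.10 to 0.0033 at the 41.2 rppm Rplp1 peak, -0.054 to 0.037 at the Rplp1 promoter and -0.19 to 0.042 at Rps27l. Depth limits D1, where 10 rppm is 26 reads, and A rests on 2 libraries.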
